A study of Mus musculus with 19 samples.

Results

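Integrins are the adhesion receptors through which T cells hold on to other cells and to matrix. The transcripts of 10 integrin subunit genes were followed in mouse regulatory T cells (Tregs): 5 α subunits (Itgae, Itgal, Itgav, Itga4 and Itga6) and 5 β subunits (Itgb1, Itgb2, Itgb3, Itgb7 and Itgb8). The genes were taken by symbol, and all 10 were found among 14290 genes with values in the table of stimulated cells and among 14818 in the table of sorted cells. All 10 passed the filter on low values in both sets, so every member was tested.

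RNA was sequenced in 19 libraries of 9 groups, all of YFP-positive Tregs of C57Bl/6 Foxp3-CRE-YFP mice, in which the Foxp3 locus drives Cre recombinase and a yellow fluorescent protein, so that floxed genes are deleted in Foxp3-expressing cells. Controls (WT) carry the Cre-YFP allele without a floxed gene, p65-deficient cells add p65 F/F, and c-Rel-deficient cells add c-Rel F/F. p65 (gene Rela) and c-Rel (gene Rel) are DNA-binding subunits of NF-kB, the transcription factor family activated by the T cell receptor. In the stimulated set, 6 libraries came from Tregs kept for 16 hours on plates coated with anti-CD3 (5 ug/mL), soluble anti-CD28 (1 ug/mL) and IL-2 (10 ng/mL). They were WT with water, WT with pentoxifylline at 500 ug/mL in water, and c-Rel-deficient, 2 libraries each. Pentoxifylline is a phosphodiesterase inhibitor. In the sorted set, 13 libraries came from Tregs of spleen and lymph nodes taken without culture or treatment. They were sorted as resting (rTreg, CD44 low) or activated (aTreg, CD44 high) cells of WT, p65-deficient and c-Rel-deficient mice, with 3 libraries of WT aTregs and 2 of each other group. Ages are not stated in the labels.

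Each integrin is a pair of an α and a β chain, and a chain reaches the cell surface only with a partner, so subunits compete for shared partners. In T cells αLβ2 (LFA-1) binds ICAMs, α4β1 binds VCAM-1, α4β7 binds the gut addressin MAdCAM-1, αEβ7 (CD103) binds E-cadherin on epithelium, and α6β1 binds laminins. The αv chain pairs with several β chains: αvβ3 binds vitronectin and osteopontin, and αvβ8 on Tregs releases active TGF-beta from its latent complex.

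Values are RPKM (reads normalised to gene length and to library size), a unit per length. Levels can therefore be set side by side between genes, as far as the gene lengths used and any later adjustment allow. Values of the sorted set were deposited after an adjustment that is not described in the sources used here, and the sets are compared only within themselves. Relative to the first water library, sequencing depth in the stimulated set ran from 0.682 to 1. Between 9469 and 9751 genes reached 1 RPKM in a stimulated library and between 9765 and 10317 in a sorted one, while the depth of the sorted libraries is unknown. The 6 Treg markers all reached 1 RPKM in every group and summed to 831 RPKM or more in each library. Nothing in the labels says that libraries of a group came from separate animals, so p-values measure only the spread between these libraries, which may be technical where the values below do not show otherwise. In RNA from bulk cells, fewer cells of a type and less RNA per cell cannot be told apart.

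Some libraries stood apart. Rel was 55.1 and 55.8 RPKM in the water libraries and 2.44 in the first library labelled c-Rel-deficient, but 24.96 in the second. That first library also had 107 RPKM of Foxp3, against 193 in the second and 218 to 290 in the 4 WT libraries, with 450 RPKM of Il2ra and 49.3 of Ikzf2 (850 and 842, and 117 and 101, with water). Its Eomes, a transcription factor gene of cytotoxic cells, was 19 RPKM, against at most 2.09 in the other 5. Of the other listed NK and cytotoxic markers only Klrd1 was also highest there, at 1.56 RPKM against at most 0.371. Prf1 (5.45), Gzmk (0.504), Gzma (0.228) and Klrb1c (0.0759) lay within the range of the other 5. Among stimulated WT libraries Xist, an RNA of female cells, was 18.7 and 22.3 RPKM in the second water and second pentoxifylline library. It was at most 0.0153 in the first ones, so these replicates differ in the sex of the cells. Both c-Rel-deficient libraries were low, at 0.011 and 0.021 RPKM, so their comparisons with WT groups are not balanced for sex. Ddx3y, a gene of the Y chromosome, was 27.84 and 39.65 RPKM in the first WT libraries and 2.73 and 6.33 in the second ones. In the sorted set, after the adjustment, Ddx3y ran from 12.35 to 40.29 RPKM, lowest in a c-Rel-deficient rTreg library. Xist ran there from -1.94 to 11.09, highest in a c-Rel-deficient aTreg library. Balance for sex is therefore not shown in that set either. The part of sex in the results of either set was not tested. In the sorted set the second c-Rel-deficient rTreg library stood apart, with 28.1 RPKM of Foxp3, 4.35 of Ikzf2 and 65.5 of Il2ra, against 73.6, 43.2 and 178 in the first. Foxp3 was 53.5 to 102 RPKM in the other 12 libraries. Rel ran from 1.39 to 5.37 RPKM in c-Rel-deficient libraries and from 10.9 to 22.0 in WT ones. Rela ran from 46.8 to 69.4 RPKM in libraries labelled p65-deficient against 62.3 to 71.5 in WT, so the transcript hardly checks that label, and how much of Rela the deletion removes is not given in the labels. Cd44, the gene of a sorting marker, was 26.4 to 61.2 RPKM in aTregs and 6.52 to 19.4 in rTregs.

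**Figure D1:**
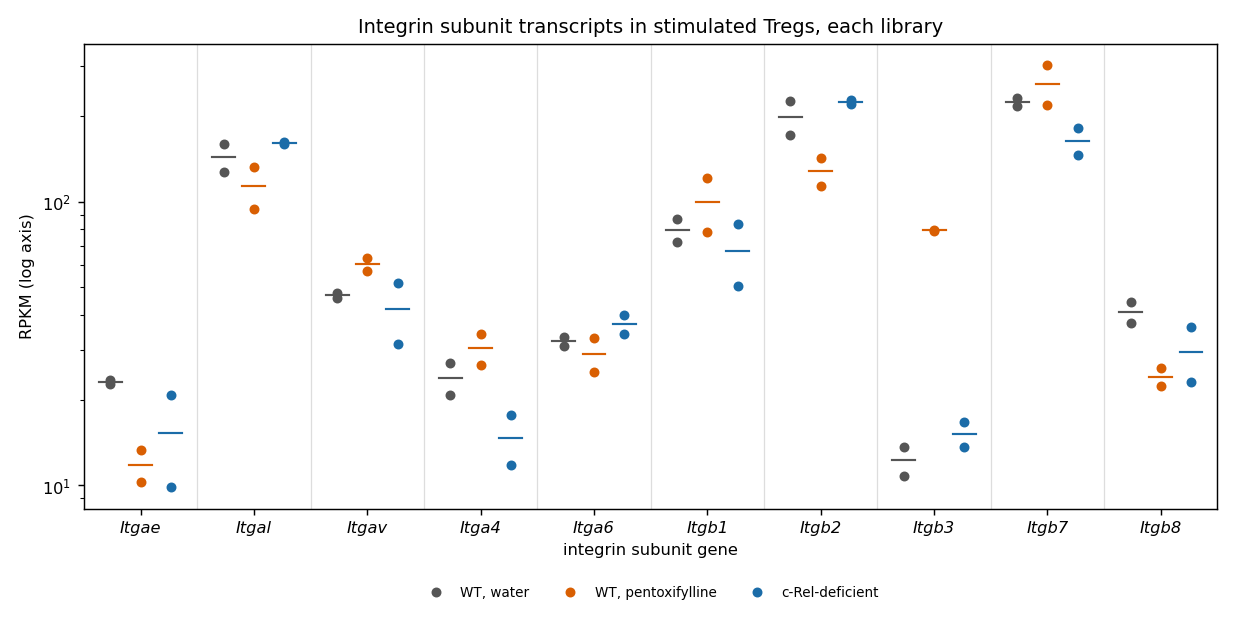
RPKM of the 10 integrin subunit genes on a log axis in the 6 libraries of stimulated Tregs, 1 point a library and a bar at the group mean. Itgb3 is near 79 RPKM in both pentoxifylline libraries and at most 16.8 in the 4 others, while the other 9 genes lie much closer together across groups.

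Pentoxifylline raised 1 subunit strongly and lowered 3 others in stimulated WT Tregs. Itgb3, the β chain of the vitronectin receptor, was about 6.48-fold higher with the drug. Itgae and Itgb8, the subunits that give Tregs their E-cadherin receptor and their TGF-beta-releasing integrin, were lower, as was Itgb2, the β chain of LFA-1. The other 6 members did not pass the test. The call of 4 members stands against 43.5% of all 9945 genes called in this comparison by limma at a Benjamini-Hochberg adjusted p under 0.05, so a share of 4 in 10 is near the background. In the authors' deposited table, where 22.7% of 14290 genes pass at the same threshold, the same 1 member was higher and the same 3 were lower.

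Itgb3 stood at 10.8 and 13.7 RPKM with water and at 79.8 and 79.0 with pentoxifylline. The groups were far apart, and the drug libraries nearly coincided. Its log2 change was 2.66 (SE 0.17, adjusted p = 0.000523), and 2.61 in the authors' deposited table (adjusted p = 5.09e-28). Itgb3 is also made by megakaryocytes and platelets, so the markers of those cells were read beside it. Of the 10 listed, 8 are in the table, and their summed level was 0.948 to 1.65 RPKM with water and 1.83 to 2.39 with the drug. The platelet chemokine genes Pf4 and Ppbp were each at 0.098 RPKM or less in every stimulated library. Itgav, the α chain that Itgb3 pairs with in T cells, was 47.9 and 45.8 RPKM with water and 63.5 and 57.2 with the drug (log2 change 0.36, SE 0.22, adjusted p = 0.22).

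Itgb8, a further β partner of Itgav, was lower with the drug. It was 44.2 and 37.3 RPKM with water and 22.4 and 26.0 with pentoxifylline, without overlap. The log2 change was -0.74 (SE 0.22, adjusted p = 0.0298), and -0.80 in the authors' deposited table (adjusted p = 0.00497). The ratio of Itgb3 to Itgb8 transcripts was thus 0.244 and 0.367 with water, and 3.56 and 3.04 with the drug. In the c-Rel-deficient libraries that ratio was 0.729 and 0.379.

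Itgae, the α chain of CD103, was 23.5 and 22.9 RPKM with water and 10.3 and 13.4 with the drug. Its log2 change was -0.95 (SE 0.31, adjusted p = 0.0434), and -1.06 in the authors' deposited table (adjusted p = 0.000151). Itga4, which competes with Itgae for the β7 chain, was 27.1 and 20.9 RPKM with water and 26.5 and 34.3 with the drug (log2 change 0.34, SE 0.23, adjusted p = 0.274). Itgae and Itga4 therefore stood at a ratio of 0.867 and 1.1 with water, and of 0.389 and 0.39 with the drug. Itgb7, the chain both bind, was 217 and 231 RPKM with water and 219 and 303 with pentoxifylline, and these groups overlapped (log2 change 0.20, SE 0.20, adjusted p = 0.46).

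Of the LFA-1 pair, Itgb2 was 172 and 226 RPKM with water and 114 and 143 with the drug. That is a log2 change of -0.63 (SE 0.19, adjusted p = 0.032), and -0.71 in the authors' deposited table (adjusted p = 0.00911). Itgal, its α partner, was 127 and 160 RPKM with water and 94.2 and 133 with the drug, which overlap (log2 change -0.35, SE 0.20, adjusted p = 0.195). Itgb2 is also carried by myeloid cells, whose 11 markers (9 in the table) summed to 8.54 to 10.7 RPKM with water and 5.67 to 6.83 with the drug; their part in the result was not tested. Itgb1 was 72.2 and 86.8 RPKM with water and 78.5 and 121 with the drug, and Itga6, its laminin-binding partner, 33.4 and 31.0 against 25.1 and 33.0. Neither passed the test (adjusted p = 0.426 and 0.471).

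The rise of Itgb3 kept its call when any 1 of the 4 libraries was left out. The fall of Itgae lost its call without any 1 of them (adjusted p from 0.0604 to 0.183), and so did that of Itgb8 (0.0533 to 0.134), while Itgb2 lost it without water replicate 2 (0.157) or pentoxifylline replicate 1 (0.192).

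In stimulated c-Rel-deficient Tregs no member passed in limma, where 0 of 9945 genes did (0%), although 791 genes and 1 member, Itga4, had an unadjusted p under 0.05. In the authors' deposited table, with 2.14% of genes called, Itgae and Itga4 were lower. Itga4 was 27.1 and 20.9 RPKM with water, and without c-Rel it was 11.8 and 17.7, without overlap. In limma the log2 difference was -0.70 (SE 0.23, adjusted p = 0.518), and in the authors' deposited table -0.88 (adjusted p = 0.0103). Itgae was 9.84 RPKM in the first c-Rel-deficient library and 20.8 in the second, against 23.5 and 22.9 in the water libraries. The lower value belongs to the library with little Rel, which also had the lowest Foxp3 and the highest Eomes of the set. Their part in the result was not tested. Its log2 difference was -0.67 in limma (SE 0.31, adjusted p = 0.657), and -0.95 in the authors' deposited table (adjusted p = 0.00727). The limma difference rests on which of these libraries is used. It was -1.20 without the second (adjusted p = 0.035, with 284 genes called in all) and -0.15 without the first (adjusted p = 1), each time with a lone c-Rel-deficient library that is assumed to vary like the other groups.

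The first c-Rel-deficient library lay below both water libraries and the second closer to them for Itgav (31.6 and 51.9 RPKM in the first and second, 46.8 ± 1.49 with water, SD, n = 2), Itgb1 (50.4 and 83.7; water 79.5 ± 10.3, SD, n = 2) and Itgb8 (23.1 and 36.1; water 40.8 ± 4.86, SD, n = 2). For Itga6 it was the first library that lay closer, at 34.2 RPKM and 39.8 in the second, against 33.4 and 31.0 with water. For Itgb7 both c-Rel-deficient libraries, at 147 and 182 RPKM, lay below both water libraries (log2 difference -0.46, SE 0.20, adjusted p = 0.645). The LFA-1 pair differed little, with Itgal at 160 and 163 RPKM (water 127 and 160) and Itgb2 at 221 and 229 (water 172 and 226), the first library again the closer to the water mean. Itgb3, so high with pentoxifylline, was 16.8 and 13.7 RPKM without c-Rel, beside 10.8 and 13.7 with water (log2 difference 0.31, SE 0.17, adjusted p = 0.704).

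The drug-treated and the c-Rel-deficient libraries were also compared directly, a comparison in which 48.4% of 9945 genes were called. Here 3 members were higher with the drug and 1 was lower. Itgb3 differed by 2.35 on the log2 scale (SE 0.17, adjusted p = 0.000298), Itga4 by 1.04 (SE 0.23, adjusted p = 0.00971) and Itgb7 by 0.65 (SE 0.20, adjusted p = 0.0325). Itga4 and Itgb7, the chains of the MAdCAM-1 receptor, thus lay apart in these groups without either passing against water in limma. Itgb2 was lower with the drug by a log2 difference of -0.81 (SE 0.19, adjusted p = 0.0109). The call of Itgb7 was lost without pentoxifylline replicate 2 or c-Rel-deficient replicate 1 (adjusted p = 0.177 and 0.171), and that of Itgb2 without pentoxifylline replicate 1 (0.08). Itgae (-0.28, SE 0.31, adjusted p = 0.493) and Itgb8 (-0.25, SE 0.22, adjusted p = 0.368) did not pass, which does not show that the drug and the loss of c-Rel acted alike on them.

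**Figure D2:**
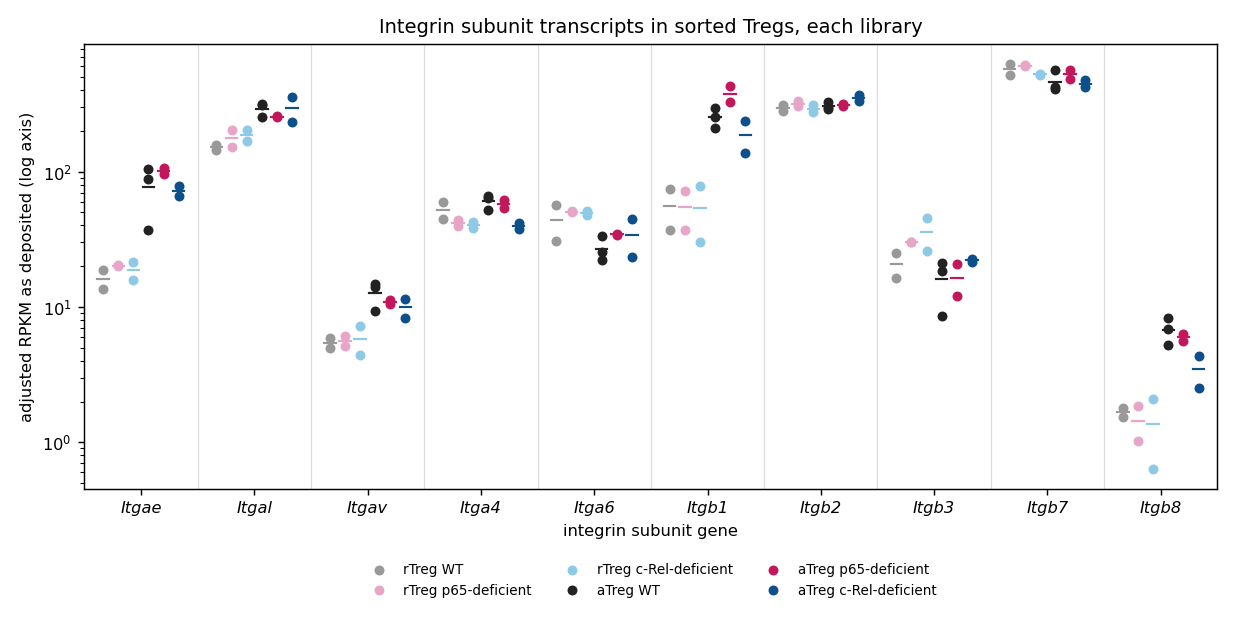
Adjusted RPKM as deposited of the 10 integrin subunit genes on a log axis in the 13 libraries of sorted Tregs, 1 point a library and a bar at the group mean. For Itgae, Itgal, Itgav, Itgb1 and Itgb8 every aTreg library lies above every rTreg library, while Itgb2 lies between 275 and 368 in all 13.

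Activated WT Tregs held more transcript of 5 of the 10 members than resting ones. Itgae, Itgb1 and Itgb8 were 4.07 to 4.76-fold higher, and Itgav and Itgal 2.35 and 1.93-fold. These 5 make up the α chain of CD103, the β chain shared by the VCAM-1 and laminin receptors, both chains of the TGF-beta-releasing αvβ8, and the α chain of LFA-1. The other 5 did not pass in limma, where 12.2% of 10656 genes were called. The authors' deposited table, with 11.2% of 14818 genes called, also has these 5 higher, and Itga6 lower. Over the 10 members the median log2 difference was 0.58, beside -0.06 over all genes tested.

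Itgb8 was the least abundant member, at 1.80 and 1.54 RPKM in WT rTregs and 6.92, 8.26 and 5.19 in WT aTregs. All 3 aTreg libraries lay above both rTreg libraries. Its log2 difference was 1.73 (SE 0.35, adjusted p = 0.0216), and 2.42 in the authors' deposited table (adjusted p = 1.58e-07). Its partner Itgav rose from 4.97 and 5.90 RPKM to 14.1, 14.9 and 9.36, a log2 difference of 1.14 (SE 0.24, adjusted p = 0.0226), and 1.28 in the authors' deposited table (adjusted p = 0.0425). The ratio of Itgb8 to Itgav was 0.362 and 0.261 in WT rTregs and 0.492, 0.555 and 0.555 in WT aTregs.

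Itgb1 was 74.4 and 37.1 RPKM in WT rTregs and 295, 252 and 209 in WT aTregs. The groups lay well apart although the rTreg libraries differed widely. Its log2 difference was 2.23 (SE 0.45, adjusted p = 0.0214), and 2.88 in the authors' deposited table (adjusted p = 3.67e-21). Its α partners did not follow it. Itga4 was 44.8 and 59.8 RPKM in rTregs and 52.3, 66.3 and 63.8 in aTregs (log2 difference 0.22, SE 0.15, adjusted p = 0.322). Itga6 was 30.7 and 56.7 RPKM in rTregs and 25.2, 22.2 and 33.4 in aTregs, which overlap; the difference was -0.64 in limma (SE 0.29, adjusted p = 0.155) and -0.91 in the authors' deposited table (adjusted p = 0.0211).

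The start regions of 2 members that rose together in aTregs, Itgav and Itgb1, are shown because the study concerns a DNA-binding factor and both start sites are the same in RefSeq and GENCODE. Each line is the 250 bases before the start in RefSeq's GRCm38.p6 sequence, plus strand, 5′ to 3′, at chr2:83724147-83724396 and chr8:128685404-128685653, with motif matches in capitals.
Itgav: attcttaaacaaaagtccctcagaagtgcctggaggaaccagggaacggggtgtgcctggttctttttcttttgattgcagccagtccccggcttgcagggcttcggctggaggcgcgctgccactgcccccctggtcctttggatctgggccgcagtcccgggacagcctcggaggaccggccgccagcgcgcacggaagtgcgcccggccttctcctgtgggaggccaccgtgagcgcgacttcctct
Itgb1: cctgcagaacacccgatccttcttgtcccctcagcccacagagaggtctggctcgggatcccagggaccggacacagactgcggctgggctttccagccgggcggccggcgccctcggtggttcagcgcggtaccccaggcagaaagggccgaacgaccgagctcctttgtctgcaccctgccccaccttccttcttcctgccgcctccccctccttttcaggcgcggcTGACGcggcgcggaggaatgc
Windows of 300 bases (250 before and 50 after the start) were matched for 5 of the 10 members, Itgav, Itga4, Itgb1, Itgb7 and Itgb8, and were searched on both strands for 4 motifs. An NF-kB motif of fixed form (GGG, any 2 bases, then TTTCC) occurs in 1.63% of 32851 such windows. It had no match in these 5 windows, and neither had the AP-1 motif TGANTCA (7.81%) or the cyclic AMP response element TGACGTCA (1.79%). The shorter core TGACG, part of TGACGTCA, occurs in 20.8% of windows. It was found once, in Itgb1, with its first base 21 before the start. Other forms of the NF-kB motif were not searched for, so their absence is not shown. These are descriptions of letters in the windows.

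Itgae was 13.6 and 18.7 RPKM in WT rTregs and 105, 88.7 and 37.0 in WT aTregs. Its log2 difference was 2.10 (SE 0.36, adjusted p = 0.0126), and 2.99 in the authors' deposited table (adjusted p = 2.32e-06). The lowest aTreg value, 37.0, belongs to the third library, which also had the lowest Cd44 (26.4 RPKM) of the WT aTregs; the part of the sort in this spread was not tested. Without that library the 5 members kept their call. Itgb7, the partner of the αE chain and the most abundant member, was 621 and 515 RPKM in rTregs and 407, 419 and 561 in aTregs (log2 difference -0.31, SE 0.17, adjusted p = 0.243).

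Itgal was 146 and 157 RPKM in WT rTregs and 315, 308 and 253 in WT aTregs. Its log2 difference was 0.94 (SE 0.20, adjusted p = 0.0231), and 1.21 in the authors' deposited table (adjusted p = 0.0371). Itgb2, the other LFA-1 chain, lay at 309 and 282 RPKM in rTregs and at 329, 288 and 300 in aTregs, the same range (log2 difference 0.05, SE 0.13, adjusted p = 0.822). The LFA-1 chains thus stood at a ratio of Itgal to Itgb2 of 0.471 and 0.558 in rTregs and of 0.957, 1.07 and 0.844 in aTregs. Itgb3 was 16.4 and 25.1 RPKM in rTregs and 18.3, 8.60 and 21.01 in aTregs, which overlap (log2 difference -0.43, SE 0.38, adjusted p = 0.443).

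These calls rest on single libraries in part. Without rTreg WT replicate 1 only Itgb1 was called, and without aTreg WT replicate 1 or 2 no member was, while all 5 differences stayed above 0 (adjusted p from 0.0513 to 0.0942 for those that lost the call). When only the 5 WT libraries were fitted, Itgb1 and Itgb8 were called and Itgae, Itgal and Itgav had adjusted p-values of 0.0631, 0.0625 and 0.0569.

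In p65-deficient Tregs 3 members were higher in aTregs than in rTregs, where 3.17% of 10656 genes were called. They were Itgae, Itgb1 and Itgb8, 3 of the 5 called in WT. Itgb1 was 72.5 and 37.0 RPKM in rTregs and 324 and 428 in aTregs, a log2 difference of 2.83 (SE 0.49, adjusted p = 0.0176). Itgae was 20.3 and 20.1 RPKM against 106 and 96.1 (2.29, SE 0.39, adjusted p = 0.0169), and Itgb8 1.86 and 1.02 against 5.62 and 6.27 (1.76, SE 0.38, adjusted p = 0.0366). Itgav, at 6.08 and 5.18 RPKM in rTregs and 10.6 and 11.3 in aTregs, did not pass (0.90, SE 0.26, adjusted p = 0.0868). Leaving out any 1 of these 4 libraries ended all 3 calls.

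In c-Rel-deficient Tregs no member was called between aTregs and rTregs by limma, and neither was any of the 10656 genes (0%), with 1494 genes and 5 members at an unadjusted p under 0.05. The 5 were the members called in WT. Itgae was 21.4 and 15.9 RPKM in rTregs and 65.8 and 78.0 in aTregs (log2 difference 1.93, SE 0.39, adjusted p = 0.173). Itgb1 was 78.3 and 30.2 RPKM in rTregs and 236 and 137 in aTregs (1.87, SE 0.49, adjusted p = 0.191). Itgb8, at 2.10 and 0.639 RPKM against 4.37 and 2.53, had a log2 difference of 1.16 (SE 0.38, adjusted p = 0.236), and Itgav, at 7.27 and 4.40 against 11.5 and 8.28, of 0.74 (SE 0.26, adjusted p = 0.256). For each of these the aTreg libraries lay above the rTreg libraries. The lower rTreg value of each is that of the second library, which stood apart in Foxp3 and Ikzf2. The part of that library in the result was not tested. By number the rTreg libraries are replicates 1 and 2 and the aTreg libraries 2 and 3. The absence of calls depends on the fit. With a replicate block the same 5 members were called, as given in the closing section on the processing.

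**Figure D3:**
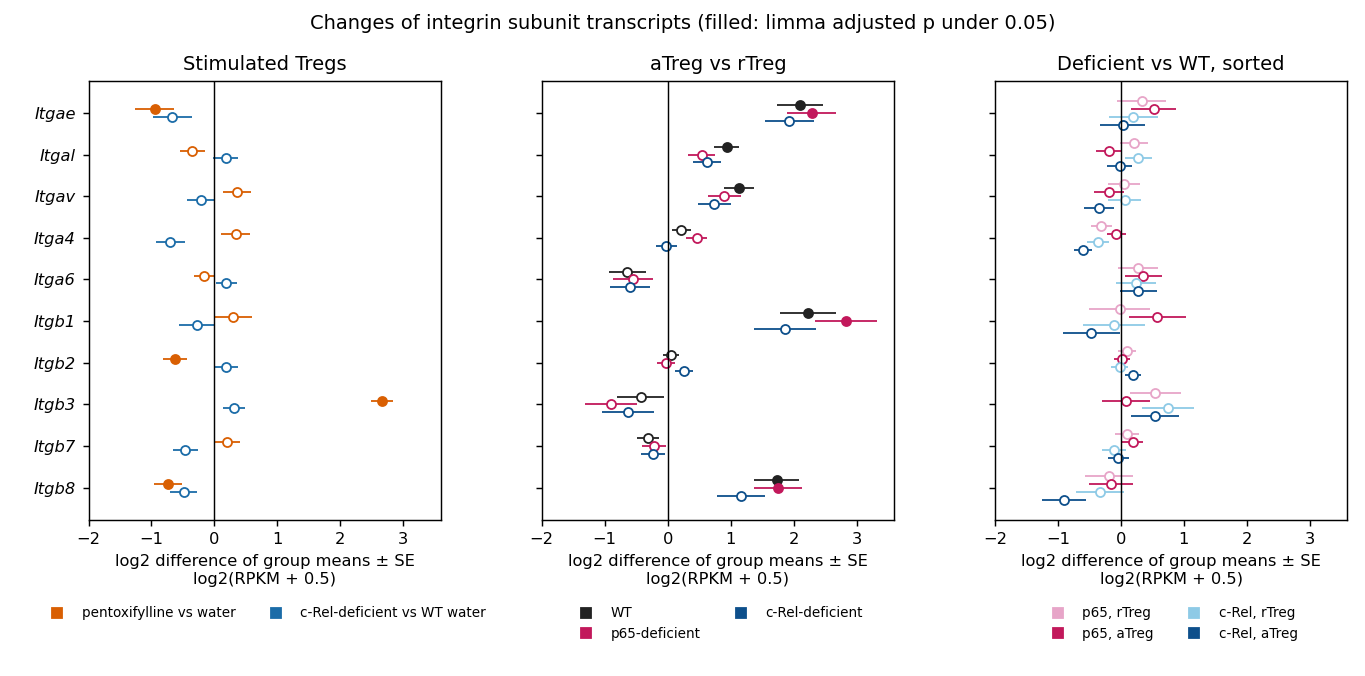
Log2 differences of group means of log2(RPKM + 0.5) with their standard errors from limma for the 10 members: stimulated Tregs against WT with water (left), aTreg against rTreg in each genotype (middle) and deficient against WT in sorted cells (right). Filled points passed an adjusted p of 0.05, and no point in the right panel did.

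Loss of p65 or of c-Rel was compared with WT within rTregs and within aTregs, and no member passed in any of the 4 comparisons, in limma or in the authors' deposited table. In limma 0% of 10656 genes passed in each of them, and between 365 and 775 genes had an unadjusted p under 0.05. The authors' deposited table calls 0.0337% of 14818 genes for p65 loss in rTregs, 0.027% for c-Rel loss in rTregs, 0.196% for p65 loss in aTregs and 0.52% for c-Rel loss in aTregs. Of the members, 2 had an unadjusted p under 0.05, both in c-Rel-deficient aTregs, and 0 had one in the other 3 comparisons. Between these groups the member differences lay between -0.90 and 0.75 on the log2 scale.

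The first of the 2 was Itga4. It was 41.9 and 37.7 RPKM in c-Rel-deficient aTregs, below the 52.3, 66.3 and 63.8 of WT aTregs. Its log2 difference was -0.60 (SE 0.15, unadjusted p = 0.00242, adjusted p = 0.3), and -0.36 in the authors' deposited table (adjusted p = 1). In rTregs the c-Rel-deficient libraries, at 42.6 and 38.1 RPKM, were also below the WT ones at 44.8 and 59.8 (-0.36, SE 0.17, adjusted p = 0.681), and so were the p65-deficient ones at 43.9 and 39.6 (-0.31, SE 0.17, adjusted p = 0.784). These share the WT libraries.

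The second was Itgb8, at 4.37 and 2.53 RPKM in c-Rel-deficient aTregs, below the 6.92, 8.26 and 5.19 of WT. The log2 difference was -0.90 (SE 0.35, unadjusted p = 0.026, adjusted p = 0.599), and -0.71 in the authors' deposited table (adjusted p = 1). In p65-deficient aTregs it was 5.62 and 6.27 RPKM, inside the WT range. In the c-Rel-deficient aTregs, in the library order of Itgb8 above, the myeloid markers (10 of 11 in the table) summed to 29.0 and 15.3 RPKM. Those sums were 3.85 to 9.63 in WT aTregs. Tyrobp, at 11.7 and 7.41 RPKM, was the largest part. Csf1r, at 0.254 and 0.201, lay inside the WT aTreg range, and Itgam, at 0.334 and 0.546, lay inside it or just above. The 7 NK and cytotoxic markers summed to 56.7 and 22.4 RPKM in the same order, against 3.52 to 13.5 in WT aTregs. Of these Gzma went the other way, at 0.439 and 0.363 against 0.694 to 0.987. In rTregs the NK and cytotoxic sums were 10.8 to 23.5 for WT, 14.2 to 26.6 for p65-deficient and 21.9 to 35.9 for c-Rel-deficient libraries. Itgb2, which myeloid and NK cells carry as well, was 368 and 330 RPKM in c-Rel-deficient aTregs and 329, 288 and 300 in WT aTregs (log2 difference 0.19, SE 0.13, adjusted p = 0.858). The part of such cells in these values was not tested.

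Itgb1 was highest in p65-deficient aTregs, at 324 and 428 RPKM, above all 3 WT aTreg libraries, with a log2 difference of 0.58 and a standard error nearly as large (SE 0.45, adjusted p = 0.998). Itgae, at 106 and 96.1 RPKM there, overlapped with WT (0.52, SE 0.36, adjusted p = 0.998). In c-Rel-deficient aTregs Itgae, at 65.8 and 78.0 RPKM, lay inside the WT range (0.03, SE 0.36, adjusted p = 0.992). Itgb3 was above WT in both deficient rTreg groups, at 30.1 and 29.9 RPKM without p65 and 26.0 and 45.5 without c-Rel against 16.4 and 25.1, but the differences of 0.55 and 0.75 had a standard error of 0.41 (adjusted p = 0.848 and 0.723). The 45.5 is from the c-Rel-deficient rTreg library with little Foxp3, Ikzf2 and Il2ra, whose part in the result was not tested; without it, too, 0 members were called.

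Whether the loss of a subunit acted differently in aTregs than in rTregs was tested as an interaction, and no member passed for p65 or for c-Rel, nor did any gene in limma (0% for each). At an unadjusted p under 0.05 there were 237 genes for p65 and 497 for c-Rel, and 0 members for either. The interaction of c-Rel with cell state was -0.57 for Itgb8 (SE 0.52, adjusted p = 0.898) and -0.36 for Itgb1 (SE 0.66, adjusted p = 0.931). That of p65 was 0.60 for Itgb1 (SE 0.66, adjusted p = 0.998).

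The order of transcript levels among the members differed between the cell states. In WT rTregs Itgb7 (568 ± 75.4 RPKM, SD, n = 2), Itgb2 (295 ± 19) and Itgal (151 ± 8.41) came first, without overlap between neighbours. Itgb1, Itga4 and Itga6 followed at 30.7 to 74.4 RPKM and overlapped, as did Itgb3 and Itgae after them, at 13.6 to 25.1. Itgav and Itgb8 came last, each below all others. In WT aTregs Itgb7 was again first (462 ± 85.8, SD, n = 3), and Itgb2 (306 ± 21), Itgal (292 ± 33.9) and Itgb1 (252 ± 43.1) overlapped behind it. Itgae and Itga4 came next and overlapped at 37.0 to 105 RPKM, then Itga6, then Itgb3 and Itgav, which overlapped, and Itgb8 was again last.

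In stimulated WT Tregs with water the order was Itgb7 and Itgb2, which overlapped, then Itgal, Itgb1, Itgav, Itgb8 and Itga6, each apart from the next, then Itga4 and Itgae, which overlapped, and Itgb3 last. With pentoxifylline Itgb3, at 79.4 ± 0.566 RPKM (SD, n = 2), stood within the range of Itgb1 (78.5 and 121) and above Itgav.

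**Figure D4:**
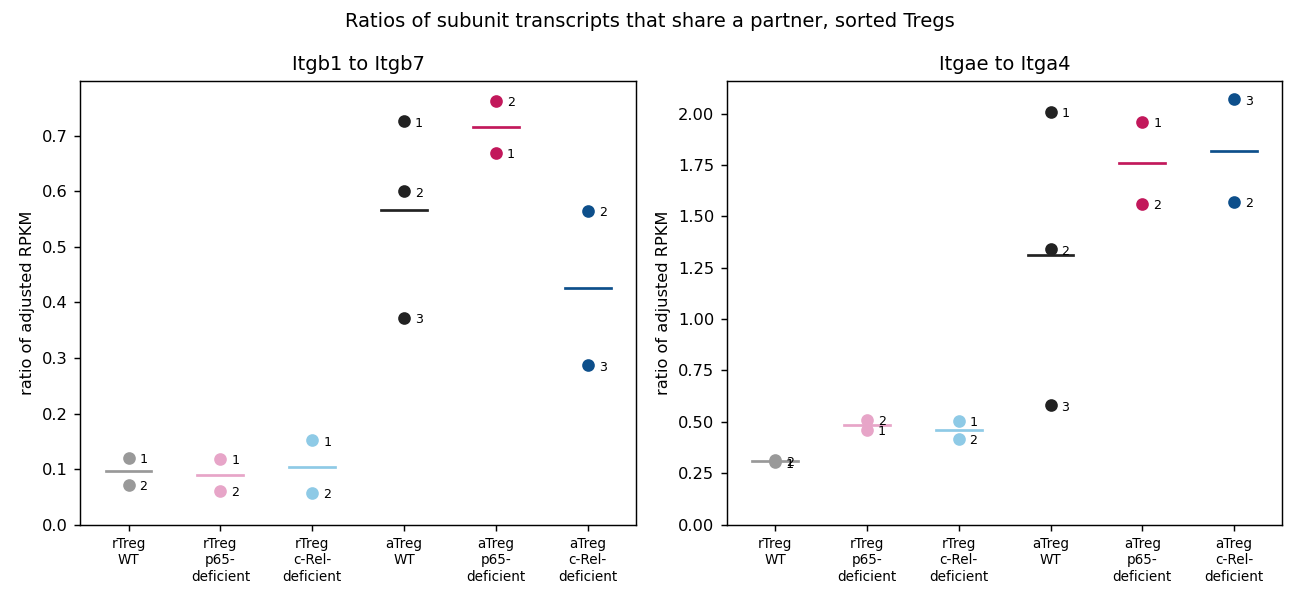
Ratio of the adjusted RPKM of Itgb1 to Itgb7, the β chains that share α4, and of Itgae to Itga4, the α chains that share β7, in each sorted library, with the library's replicate number beside its point and a bar at the group mean. The first ratio is 0.0571 to 0.152 in rTregs and 0.287 to 0.763 in aTregs, and the second is lowest among aTregs in the third WT library, at 0.58.

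Subunits that share a partner shifted against each other with cell state, as the plot of partner ratios shows. The β1 and β7 chains both pair with α4, and Itgb1 to Itgb7 stood at 0.0571 to 0.152 in the 6 rTreg libraries and at 0.287 to 0.763 in the 7 aTreg libraries. The αE and α4 chains both pair with β7, and Itgae to Itga4 was 0.303 to 0.509 in rTregs and 0.58 to 2.07 in aTregs. In neither ratio did the cell states overlap. In the stimulated set, where Itgae to Itga4 fell with the drug, Itgb1 to Itgb7 lay between 0.332 and 0.459 in all 6 libraries. The ratios use the values already given and were not tested.

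Other genes with the most similar profiles over the 6 sorted group means were found for the 5 members whose group means varied by at least 1 on the log2 scale. Likeness was the root mean square difference of centred log2 values among 7890 or 7891 genes. All these profiles come from the same 13 libraries. Nearest to Itgae were Icos (0.15), the costimulatory receptor of effector Tregs, Zbtb32 (0.15) and Gna15 (0.17). Nearest to Itgb1 were 6330403K07Rik (0.16), Il1rl1 (0.17), the receptor for interleukin 33, and again Zbtb32 (0.18). Itgb8 had Ptpn13 (0.10), Myo1e (0.11) and Spock2 (0.11), and Itgav had Tjp3 (0.05), Rab8b (0.07) and Abi2 (0.07). Itgb3, whose profile ran the other way, had Ikzf1 (0.06), Fam102a (0.11) and Slc25a23 (0.11).

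Other genes of the integrin system were read from 4 lists. Of 18 other integrin subunits, 3 were tested in the stimulated set, and 2 rose with pentoxifylline, beside 43.5% of all genes called: Itga5, an α chain of the fibronectin receptor, from 3.15 to 5.62 RPKM (log2 change 0.74, adjusted p = 0.0129), and Itga7 from 0.785 to 1.81 (0.85, adjusted p = 0.0363). In WT aTregs 3 of 6 tested were called higher than in rTregs, beside 12.2% of all genes. All 3 reached 1 RPKM in aTreg libraries alone and so passed the filter on low values only through the cells where they are high, as Itga7 did through the drug libraries, and these counts are shaped by the filter. They were Itgb5, a further β partner of αv, at 2.06 against 0.19 RPKM, Itga2 at 2.14 against 0.379, and Itga3 at 1.92 against 0.894. In p65-deficient aTregs Itgb5 alone of the 6 was called (3.06 against 0.176 RPKM), beside 3.17% of all genes. Itga7, Itgb5, Itga2 and Itga3 lie below the level set for naming genes and were named after their values were seen.

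Of 29 tested genes that switch integrins on or tie them to actin, 6 rose and 2 fell with pentoxifylline (median log2 change 0.08, all genes 0.00). These 8 are a smaller share than the 43.5% called among all genes. Stk4, a kinase of the Rap1 pathway to LFA-1, rose from 87.3 to 247 RPKM (1.49, adjusted p = 0.000636). Rasgrp2, which activates Rap1, rose by 1.24 (adjusted p = 0.0342), and Fyb, the adaptor ADAP, by 1.13 (adjusted p = 0.00163). The 2 that fell were named after their values were seen. Parvg fell from 76.5 to 46.9 RPKM (-0.70, adjusted p = 0.0101), and Rap1a, a Rap1 gene, from 43.2 to 33 (-0.38, adjusted p = 0.0358). In WT aTregs 1 of 30 was higher and 2 were lower than in rTregs, beside 12.2% of all genes called: Dok1 rose by 0.69 (adjusted p = 0.0201), Cytip, a cytohesin-binding protein, was 63.9 against 139 RPKM (-1.19, adjusted p = 0.0364), and Ptk2, focal adhesion kinase, was 0.929 against 2.4 RPKM, a low gene named after its values were seen. Dok1 was the only one of the 30 called in p65-deficient aTregs (0.86, adjusted p = 0.0175).

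The list of latent TGF-beta, which αvβ8 acts on, and of its receptors and mediators had 5 of 12 tested genes higher and 3 lower with pentoxifylline (median log2 change 0.49, all genes 0.00), beside 43.5% of all genes called. The receptor Tgfbr2 rose from 52.7 to 111 RPKM (1.06, adjusted p = 0.0018), the feedback inhibitor Smad7 by 1.05 (adjusted p = 0.00297) and Smad4 by 1.01 (adjusted p = 0.00127). The 3 lower ones were Tgfbr1 (-0.71), Furin, the protease that cleaves the TGF-beta precursor (-0.58), and Smad3 (-0.46), also named after their values were seen. Lrrc32, which holds latent TGF-beta on the Treg surface for αvβ8, was 581 RPKM with the drug and 306 with water (0.92, adjusted p = 0.0334). It also differed between the drug (581 ± 45.5) and c-Rel-deficient Tregs (175 ± 74.9, SD, n = 2 each). That log2 difference was 1.79 (adjusted p = 0.00224), in a comparison with 48.4% of all genes called. In WT aTregs Tgfbr1 was higher (0.86, adjusted p = 0.0364) and Smad2 lower (-0.40, adjusted p = 0.0481) of 14 tested, beside 12.2% of all genes.

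Of the integrin ligands, 1 of 8 tested rose and 2 fell with pentoxifylline, near the 43.5% of all genes called, and all 3 were under 3 RPKM: fibronectin, Fn1 (0.537 to 2.93), osteopontin, Spp1 (1.59 to 0.0909), and Icam5 (1.34 to 0.0948), named after their values were seen. Fn1 passed the filter only through the drug libraries, and Spp1 and Icam5 only through the libraries without the drug. Each thus passed only through the cells where it is high, and these counts are shaped by the filter. In WT aTregs the laminin chain gene Lamc1 was higher, at 14 ± 4.52 RPKM (n = 3) against 3.55 ± 1.03 (n = 2; log2 difference 1.81, adjusted p = 0.031), 1 of 6 tested, beside 12.2% of all genes. Against the c-Rel-deficient libraries, 3 of 8 ligands were higher and 3 lower with the drug, beside 48.4% of all genes called. Fn1 is among the higher and Spp1 and Icam5 among the lower ones, so the filter shapes these counts too. Lamc1 (1.69) and Lama5 (1.39), both laminin chains, were the largest of the higher ones above 5 RPKM. Of the lower ones only Icam2 was above 5 RPKM, at 25.3 with the drug against 35.5 (-0.48, adjusted p = 0.0315). In the comparisons where limma called no gene, no gene of these lists was called either.

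All 10 members are protein-coding genes. In GENCODE M21 on GRCm38, 3 of the 5 α genes lie on the plus strand of chromosome 2: Itga6 at chr2:71745616-71858416, Itga4 at chr2:79255426-79333123 and Itgav at chr2:83724397-83806916. Itgae (chr11:73090583-73147446) and Itgb3 (chr11:104608000-104670476) share chromosome 11, and Itgal is at chr7:127296260-127335138, all on the plus strand. Of the other β genes, Itgb1 (chr8:128685654-128733200) and Itgb2 (chr10:77530252-77565708) are on the plus strand, and Itgb7 (chr15:102215995-102231944) and Itgb8 (chr12:119158022-119238802) on the minus strand. Itga4 overlaps the end of Cerkl, which is on the opposite strand and reached at most 1.85 RPKM in the sorted set, and Itgae contains Haspin, also on the opposite strand. The counting is not stated to use strand, so reads of such partners cannot be told apart, though Cerkl was low beside Itga4.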

How the data were processed

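Each set has 1 table deposited by the authors, which holds RPKM by library and, per the file headers, the authors' own log2 fold changes and p-values. STAR, mm10 and DESeq2 1.10.1 are named in the submitters' processing notes. The sorted values are RPKM after an undescribed adjustment: 2.53% lie below 0 (lowest -30.7), and 15883 values are tied between same-numbered libraries and 0 between differently numbered ones. Degrees of freedom used by that adjustment are not known, so p-values there may be too small. Rows without values (20 and 21 of 14310 and 14839) were left out.

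Values below 0 were set to 0 and 0.5 was added before log2. Genes that reached 1 RPKM in 2 or more libraries (9945 and 10656) entered limma 3.58.1 (R 4.3.3; lmFit, contrasts, eBayes with trend; all groups of a set in 1 fit), two-sided, with Benjamini-Hochberg adjustment over all genes and a threshold of 0.05. A fold change on log2(RPKM + 0.5) understates the change of low genes, and a fold is a ratio of mean RPKM. The deposited p-values were adjusted the same way here. The procedure was tested on simulated data. RPKM are not counts, so no count test was run.

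All members are named, with Foxp3, Rel, Rela and Cd44 as label checks; a further label check is not reported here. From each list up to 3 called genes per comparison whose higher group mean was 5 RPKM or more are named, by size of change. Like genes are the 3 nearest, with a mean of at least 5 RPKM. The members and lists were chosen with earlier results of these data known. The alternatives were a pseudocount of 0.1 or 1, leaving out the filter, a filter of 3 RPKM, median-of-ratios scaling, robust variance moderation, only the groups compared, a replicate block, leaving out each library, and leaving out both libraries numbered 3. Python 3.11.15, pandas 2.3.3, numpy 2.4.6 and matplotlib 3.10.9 were used.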

Additional observations from a re-analysis of the deposited data

How the results depend on the processing

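For the 19 member changes that were followed, all 243 values under the alternatives kept their direction; 192 kept their side of the threshold, 48 lost the call and 3 gained one. With pentoxifylline 4 members were called, and 1 (Itgb3) without the filter on low values. Leaving out 1 library gave 1 to 2 members there, 0 to 1 for c-Rel loss in stimulated Tregs, 0 to 5 for WT aTregs against rTregs and 0 in every case for the p65-deficient ones. When only the groups compared were fitted, 2 members were called for WT aTregs against rTregs and 5 for the p65-deficient ones. With a replicate block 5 members (Itgae, Itgal, Itgav, Itgb1 and Itgb8) and 901 genes were called between c-Rel-deficient aTregs and rTregs, where 0 were without it, and without both libraries numbered 3 it was 1 member (Itgae) and 228 genes. The cause of these differences was not tested, beyond that fewer libraries enter some fits. The block also called Itga6 between WT aTregs and rTregs (-0.88, adjusted p = 0.036), and leaving out both libraries numbered 3 did too (-0.80, adjusted p = 0.0474). The replicate block moved no other count of members by over 1.5 times. The count for pentoxifylline against c-Rel-deficient Tregs reached that limit, with 6 members in place of 4, Itgal and Itgb1 being added. In the stimulated set replicate numbers did not pair the libraries throughout. Deviations from group means of same-numbered libraries correlated there at 0.40 for water with pentoxifylline and at -0.07 for water with c-Rel-deficient. For the remaining pair of groups the correlation was 0.12. In the sorted set such correlations were -0.49 to 0.44. Those values were deposited after an adjustment, with ties only between same-numbered libraries. The correlations therefore cannot tell whether the numbers pair the sorted libraries. Median-of-ratios scaling left the median of all genes within 0.1 on the log2 scale in every comparison. With 2 or 3 libraries a group and unknown depth in the sorted set, low members such as Itgb8 are the least precise.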
